A study of Mus musculus with 6 samples.

Results

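The p53 pathway was described through 32 genes, listed by symbol, that encode p53 itself, the proteins that hold it in check and well-known products of its target genes. All 32 were found among the 55487 genes of the count table, and 30 of them had enough counts to be tested, beside 17315 tested genes in all. Fas and Gdf15 were too low to test. The 6 bulk libraries came from mouse embryonic stem cells grown for 4 days toward primitive macrophage progenitors, the first cells of the yolk sac that can give rise to macrophages. Each group had 3 libraries, labelled as lots 1 to 3: one group from stem cells of Ts1Cje mice, the other from wild-type stem cells. Ts1Cje is a Down syndrome model with an extra copy of part of chromosome 16 and a deletion on chromosome 12. Both groups were kept as stem cells with LIF and serum replacement, and both were then given BMP-4, VEGF, FGF2 and activin A. The series' design text speaks of 3 different cells, which may mean 3 separate lines or cultures per genotype, while the sample labels say only lot. Which it was is not given in the sources used here. If the lots came from 1 line per genotype, genotype and line cannot be told apart and the p-values measure a spread that may be technical. No gene of the set lies on chromosome 16 or 12.

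p53 is a transcription factor that is made all the time and, in unstressed cells, is quickly destroyed by the ubiquitin ligase MDM2. DNA damage, shortage of nucleotides or ribosomal stress frees it from MDM2, and it then turns on genes that stop the cell cycle, start apoptosis, repair DNA, change metabolism and, through Mdm2 itself, switch p53 off again. Most of its control is at the level of the protein, so that mRNA of Trp53 does not report p53 activity. In mouse embryonic stem cells p53 is abundant, and it is known to favour the exit from pluripotency and mesendoderm formation.

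p53 binds DNA as a tetramer, and each pair of subunits reads 1 copy of a 10-base motif, the p53 decamer. Promoter windows of RefSeq (GRCm38.p6, the assembly of mm10), from 250 bases before to 50 bases after a transcription start, were at hand for 24 of the 32 genes. In 3 of them a 20-base stretch read as an adjoining pair of decamers with at most 2 letters off, against 0.392% of the 27025 genes in the table of windows. These 3 are shown because their genes, Cdkn1a, Ccng1 and Gtse1, were all higher in Ts1Cje. Capitals mark the 20-base element, in which 1 letter was off in each, and the letters run 5′ to 3′ on the strand of the gene.
Cdkn1a, chr17:29090908-29090967, plus strand: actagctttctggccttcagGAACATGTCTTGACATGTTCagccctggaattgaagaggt
Ccng1, chr11:40755442-40755501, minus strand: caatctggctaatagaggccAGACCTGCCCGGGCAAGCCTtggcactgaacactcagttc
Gtse1, chr15:85859940-85859969, plus strand: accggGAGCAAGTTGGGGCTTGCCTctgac
The element began at position −51 from the start for Cdkn1a, at −195 for Ccng1 and at −1 for Gtse1. Positions count from the start of the window that held the element. The 24 genes had 33 windows, so a gene can have further starts, and which start was in use was not tested.

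A single decamer without a letter off stood in the windows of 12 of the 24 genes, against 9.55% of all genes with a window. The motif reads the same on both strands, so each match counts for both. Since the genes were listed as targets of p53, this share is a description of the list. The windows of Mdm2, Pml, Ppm1d, Trp53 and Bax are shown because these genes cover all 3 outcomes: the first 3 were higher in Ts1Cje, Trp53 was lower, and Bax did not pass. Capitals mark the decamer.
Mdm2, chr10:117710915-117710964, minus strand: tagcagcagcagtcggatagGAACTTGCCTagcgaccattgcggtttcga
Pml, chr9:58249901-58249950, minus strand: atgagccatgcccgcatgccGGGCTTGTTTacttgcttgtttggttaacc
Ppm1d, chr11:85311102-85311151, plus strand: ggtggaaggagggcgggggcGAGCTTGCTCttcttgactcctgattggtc
Trp53, chr11:69580264-69580313, plus strand: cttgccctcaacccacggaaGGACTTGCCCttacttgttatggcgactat
Bax, chr7:45467070-45467119, minus strand: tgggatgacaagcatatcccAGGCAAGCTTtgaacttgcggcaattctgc
Of the 12 genes with a decamer, 9 were higher in Ts1Cje, 2 lower and 1 did not pass. Of the 12 whose windows held none, 9 were higher, 1 was lower and 2 were not tested. The windows thus did not separate the genes by direction. They leave out introns and distant sites, where many known p53 sites lie.

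Most genes of the pathway were higher in Ts1Cje, and the gene for p53 itself was lower. Increases passed an adjusted p of 0.05 in 22 of the 30 tested genes and decreases in 4, and the other 4 did not pass (edgeR's quasi-likelihood test, adjusted over all tested genes). Differences between these groups were common everywhere: 43.8% of all tested genes passed, 23.3% higher and 20.5% lower. The median log2 fold change, Ts1Cje over wild-type, was 0.56 over the 30 genes and −0.01 over all tested genes. In 28 of the 30 genes the 3 Ts1Cje libraries lay all above or all below the 3 wild-type libraries, against 55.2% of all tested genes. At least 2-fold changes were seen in 11 of the 30, all of them increases, against 18.1% of all tested genes in either direction. Leaving out any 1 library gave 19 to 23 genes higher and 3 or 4 lower.

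**Figure D1:**
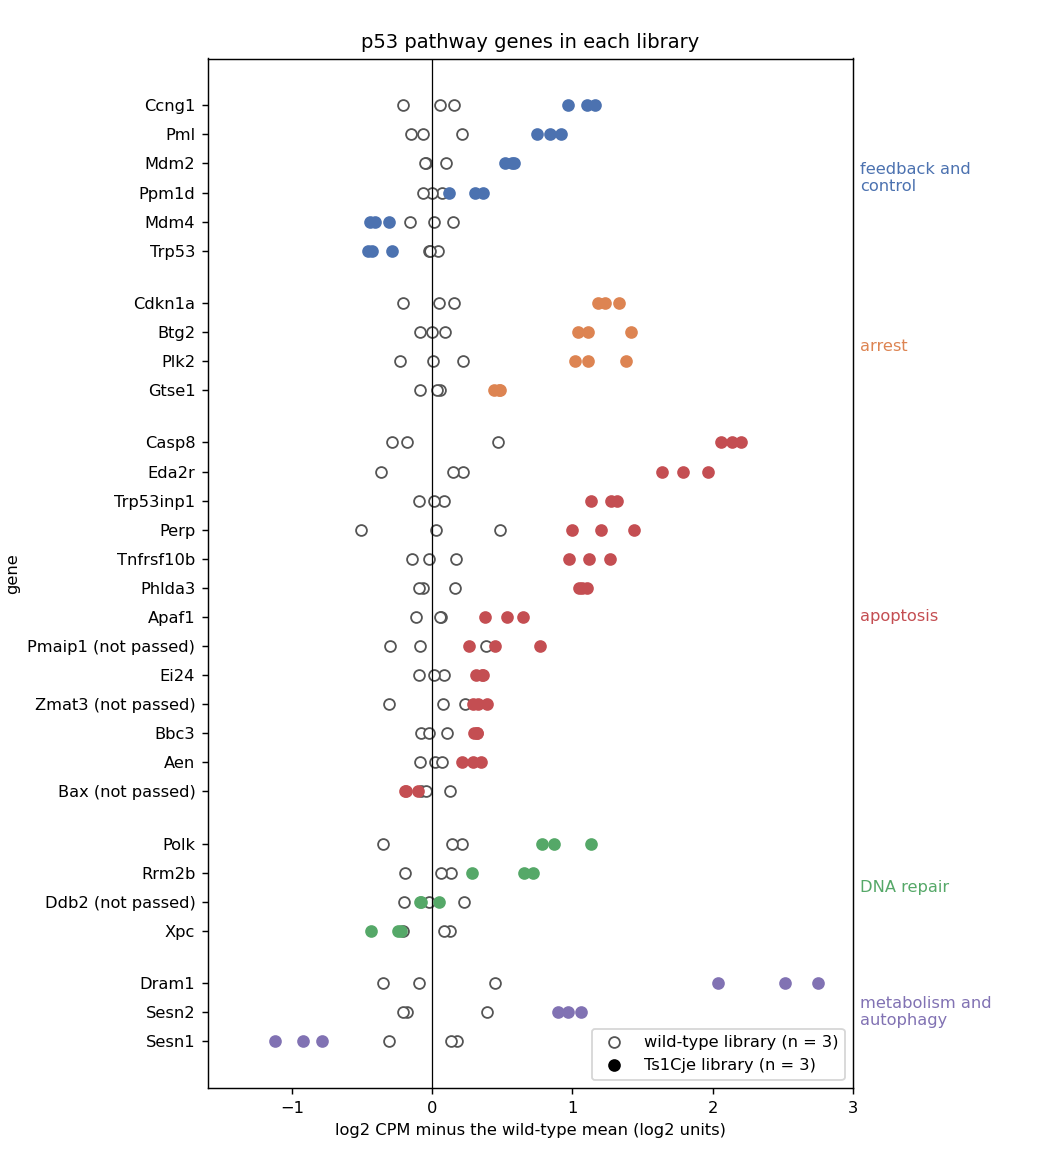
Each tested gene has a row, grouped by function; the x axis is log2 CPM minus the wild-type mean of that gene, with open points for the 3 wild-type libraries and filled points for the 3 Ts1Cje libraries. Filled points lie to the right of the open ones for 23 genes and to the left for 5, with Dram1, Casp8 and Eda2r farthest to the right and Sesn1 farthest to the left.

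Total counts were 16577065 to 19010856 per library, of which 35401 to 36416 fell on the 32 genes in wild-type and 43905 to 52192 in Ts1Cje. Summed, the 32 genes took 1916 to 1996 CPM (counts scaled to the library's size, with TMM factors) in wild-type and 2616 to 2739 in Ts1Cje. The cells differed in more than this pathway. The sum of 12 marker genes of mesoderm and vessel, of which 9 fell and 0 rose, was 1991 to 2102 CPM in wild-type and 462 to 628 in Ts1Cje. That of 13 endoderm markers, all of which rose, was 483 to 602 and 1757 to 2349, and that of 11 pluripotency markers, of which 7 rose, 132 to 403 and 731 to 1097. A sum of 10 genes of cell stress, death and RNA quality, of which 3 rose, was 12551 to 12932 CPM and 13861 to 16095. Neuroectoderm markers, 3 of 4 tested higher, summed to 63.4 to 122 CPM in wild-type and 235 to 254 in Ts1Cje, and feeder fibroblast markers, 3 of 4 tested lower, to 23.7 to 66.0 and 10.2 to 11.4. Of 9 tested blood progenitor markers 4 rose and 4 fell, and their list summed to 193 to 273 CPM and 220 to 236. The 12 macrophage markers, of which 3 were tested and 1 rose, summed to 18.5 to 24.8 CPM and 28.3 to 30.9, and Ptprc and Fcgr1 had 0 counts in every library. Wild-type replicate 1 had the highest pluripotency sum of its group (403 CPM, against 132 and 140), and for 16 of the 30 genes it was the wild-type library nearest to the Ts1Cje mean, against 6 for replicate 2 and 8 for replicate 3. The same count was not made over all tested genes, so it does not single out this set. Over all genes, the chi-square per degree of freedom between counts was 13.2 and 16.8 for replicate 1 with replicates 2 and 3. Between replicates 2 and 3 it was 4.53. The part of these cell states in the values below was not tested. In bulk RNA, more cells of one kind and more RNA per cell cannot be told apart.

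Levels between genes are given per length, as the TPM the authors deposited. Trp53 had the highest wild-type level of the set, 215 ± 9.68 TPM (SD, n = 3 here and below), and Ccng1 the highest in Ts1Cje, 248 ± 14.7 TPM. In wild-type, Trp53 was followed by Bax (158 ± 8.68), Pmaip1 (137 ± 36.9), Ccng1 (117 ± 12.4) and Gtse1 (115 ± 4.38). Pmaip1 did not differ beyond its spread from its neighbours in this order, nor Ccng1 from Gtse1. Cdkn1a, the classic readout of p53, was in the middle of the order, at 31.3 ± 4.17 TPM in wild-type and 74.3 ± 4.05 in Ts1Cje. The lowest of the tested genes were Rrm2b (1.97 ± 0.241), Casp8 (2.60 ± 0.836), Eda2r (4.51 ± 0.866) and Dram1 (4.72 ± 1.48).

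**Figure D2:**
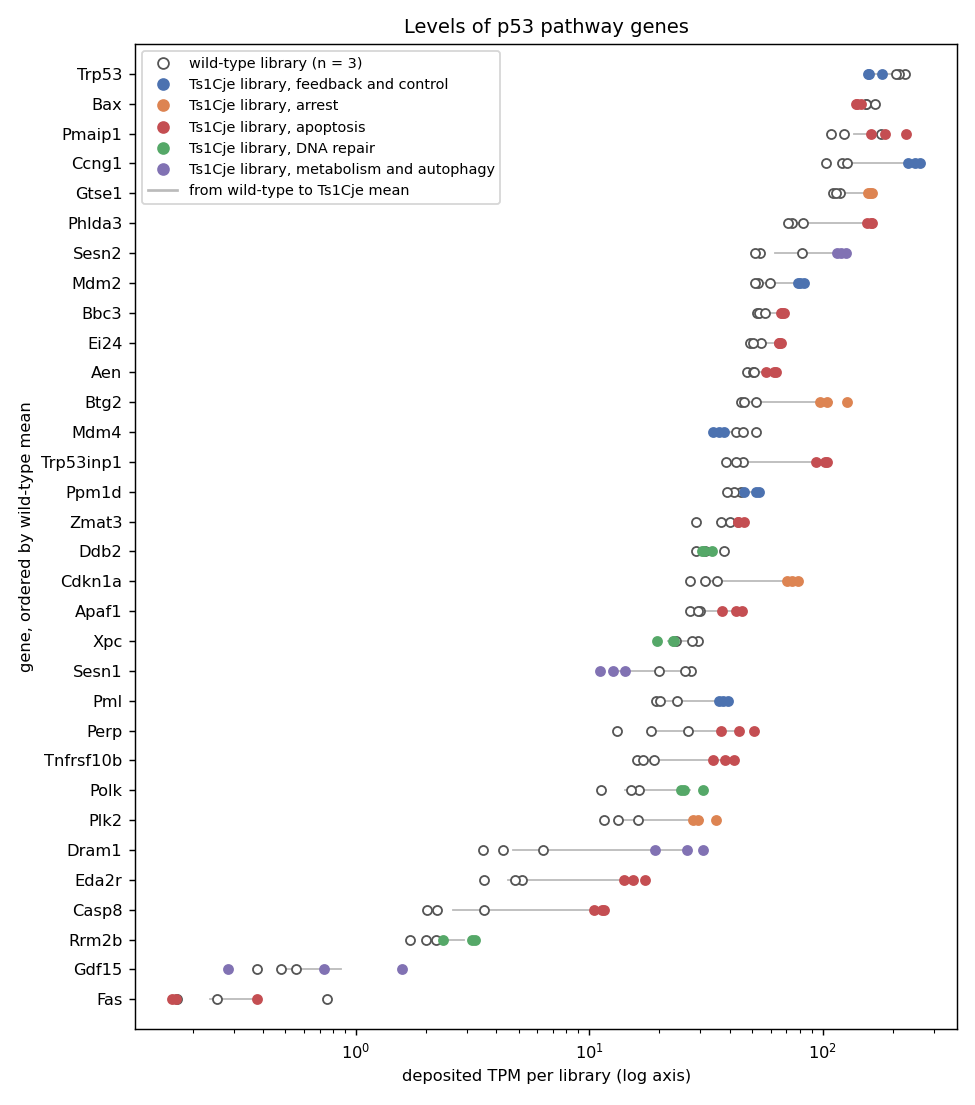
Each gene has a row, ordered by its wild-type mean; the x axis is the deposited TPM on a log axis, open points are wild-type libraries, filled points Ts1Cje libraries coloured by function, and the grey line joins the group means. Trp53 is at the top at 215 TPM in wild-type, and Fas and Gdf15 are at the bottom, below 1 TPM on average.

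Among the 6 genes that carry or control p53, 4 rose and 2 fell. Trp53 (ENSMUSG00000059552, mm10 chromosome 11, 69580359 to 69591873, plus strand) had 278, 266 and 267 CPM in wild-type replicates 1 to 3 and 201, 221 and 196 in Ts1Cje replicates 1 to 3. Every Ts1Cje library was below every wild-type library, and the gene fell by 0.39 on the log2 scale (SE 0.06, adjusted p = 0.000828). The processed copy Trp53-ps had 726 counts over the 6 libraries, and how reads shared with it were counted is not given in the sources used here.

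Mdm2, which encodes the ligase that marks p53 for destruction, rose. Its wild-type libraries held 92.4, 83.6 and 83.0 CPM and its Ts1Cje libraries 128, 129 and 123, a log2 fold change of 0.56 ± 0.07 SE (adjusted p = 0.00014). Mdm4, the partner of MDM2 that covers the activation domain of p53, went the other way, from 192, 238 and 216 CPM to 158, 162 and 174 (−0.39 ± 0.08, adjusted p = 0.00374). The groups did not overlap for either gene. Within a library, Mdm2 over Mdm4 in TPM was 1.40, 1.02 and 1.12 in wild-type and 2.36, 2.32 and 2.07 in Ts1Cje (2-sided exact permutation test, p = 0.1, the smallest that 3 against 3 libraries allow). Mdm2 over Trp53 was 0.254 ± 0.00923 in wild-type and 0.491 ± 0.0232 in Ts1Cje (exact permutation test, p = 0.1). For both ratios the separation was fixed in advance, since their genes had moved in opposite directions without overlap, so these tests add no evidence.

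Ccng1, cyclin G1, brings a phosphatase to MDM2 and is a long-known target of p53. It had 111, 133 and 142 CPM in wild-type and 275, 250 and 285 in Ts1Cje, with no overlap, a rise of about the size of that of Phlda3 (log2 1.07 ± 0.10 SE, adjusted p = 2.43e-05). Pml, the scaffold of nuclear bodies in which p53 is modified, rose from 32.8, 34.8 and 42.2 CPM to 68.8, 61.0 and 65.0 (0.83 ± 0.11, adjusted p = 0.000186). Ppm1d encodes WIP1, a phosphatase that resets p53 and the kinases above it. It moved least in this group, from 41.4 ± 1.91 to 49.6 ± 4.24 CPM (0.26 ± 0.09, adjusted p = 0.0387). The call did not hold on leaving out wild-type 2 (adjusted p = 0.106), wild-type 3 (0.129), Ts1Cje 1 (0.125) or Ts1Cje 3 (0.118), nor with DESeq2 (0.0562) or upper-quartile scaling (0.0613).

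The 4 genes grouped under cell cycle arrest all rose, with a median log2 fold change of 1.18. The group includes Gtse1, whose product restrains p53. Cdkn1a encodes p21, the inhibitor of cyclin-dependent kinases through which p53 stops the cycle (ENSMUSG00000023067, mm10 chromosome 17, 29090976 to 29100727, plus strand). Its libraries held 38.3, 29.8 and 35.6 CPM in wild-type and 78.2, 80.7 and 86.4 in Ts1Cje. The lowest Ts1Cje value was thus above the highest wild-type value, a 2.37-fold rise (log2 1.24 ± 0.10 SE, adjusted p = 1.17e-05). A transcript on the other strand, 1700023B13Rik, shares 273 exonic bases with Cdkn1a and had 733 counts against 6336. The library kit marks strand, but the strand setting of the counting is not given in the sources used here, so reads in the shared part cannot be told apart.

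Btg2, an antiproliferative partner of the mRNA deadenylase complex, had 43.3, 38.1 and 40.5 CPM in wild-type and 83.6, 87.7 and 108 in Ts1Cje (1.20 ± 0.11, adjusted p = 2.14e-05). Plk2, a polo-like kinase of the stress response, had 22.1, 16.1 and 19.0 CPM against 49.4, 38.3 and 40.8 (1.17 ± 0.14, adjusted p = 0.000125). Both are also known as immediate early genes, which answer growth factors. Gtse1, a microtubule protein of the G2 and M phases that restrains p53, rose less, from 98.0 ± 4.99 to 135 ± 2.13 CPM (0.46 ± 0.06, adjusted p = 0.000289).

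Apoptosis genes made up the largest group, and 10 of its 13 tested members rose, 0 fell and 3 did not pass. Their median log2 fold change was 0.52. Casp8 and Eda2r rose most of this group, and the death receptor gene Tnfrsf10b rose too. Casp8, the caspase that death receptors activate, had 3.14, 2.00 and 1.86 CPM in wild-type and 9.48, 10.01 and 10.4 in Ts1Cje, a 4.26-fold rise (2.09 ± 0.23, adjusted p = 7.2e-05). Eda2r, a gene on the X chromosome for a receptor of ectodysplasin, went from 6.33, 9.47 and 9.05 CPM to 31.9, 25.4 and 28.2 (1.78 ± 0.17, adjusted p = 2.83e-05). Tnfrsf10b, the mouse receptor for TRAIL, went from 26.5, 28.9 and 32.9 CPM to 57.8, 63.8 and 70.7 (1.12 ± 0.11, adjusted p = 3.59e-05). For these 3 genes the groups were well apart. Fas, the best known death receptor, had only 2, 3 and 9 counts in wild-type and 2, 4 and 2 in Ts1Cje, so a difference was not detectable at this depth (without the filter on low counts, log2 fold change −0.74 ± 1.00 SE, adjusted p = 0.62).

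Trp53inp1, Phlda3 and Perp rose by log2 values of 1.07 to 1.24. Trp53inp1, a stress protein that helps p53 to be phosphorylated, had 90.3, 85.9 and 79.8 CPM in wild-type and 212, 186 and 207 in Ts1Cje (1.24 ± 0.07, adjusted p = 2.64e-06, the smallest of the set). Phlda3, which keeps the survival kinase AKT from the membrane, had 35.1, 34.3 and 41.1 CPM against 75.9, 76.8 and 79.0 (1.07 ± 0.09, adjusted p = 1.26e-05). Perp, a membrane protein that also builds desmosomes in epithelia, went from 15.8, 7.96 and 11.5 CPM to 22.6, 26.1 and 30.7 (1.17 ± 0.23, adjusted p = 0.00364). Its wild-type values were spread widely, yet all lay below the Ts1Cje values.

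Of the BCL2-family genes that open the mitochondrion, Bbc3 passed the test and Bax and Pmaip1 did not. Bbc3, which encodes PUMA, rose by a log2 value of 0.31 ± 0.08 (33.9, 35.2 and 38.4 CPM to 44.7, 44.6 and 44.0, adjusted p = 0.014), and with wild-type replicate 2 left out the adjusted p was 0.0577. Bax, the pore-forming effector, had 73.4, 75.3 and 84.6 CPM in wild-type and 72.3, 67.8 and 68.2 in Ts1Cje (−0.16 ± 0.08, adjusted p = 0.117). Pmaip1, which encodes NOXA, had 149, 92.5 and 107 CPM against 194, 155 and 136 (0.48 ± 0.21, adjusted p = 0.116). Its groups overlapped through wild-type replicate 1. Without that library its adjusted p was 0.00853 at a log2 fold change of 0.69, and with DESeq2 on all 6 libraries it was 0.0187.

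Downstream of the pore, Apaf1, the core of the apoptosome, rose from 80.8 ± 5.5 to 116 ± 10.8 CPM (0.52 ± 0.09, adjusted p = 0.000874). Ei24, a protein of the endoplasmic reticulum, and Aen, a nuclease of dying cells, rose by 0.34 ± 0.07 (adjusted p = 0.00309) and 0.28 ± 0.07 (adjusted p = 0.00883). Zmat3, an RNA-binding protein through which p53 acts on splicing, had 100.4, 131 and 146 CPM in wild-type and 156, 152 and 163 in Ts1Cje (0.32 ± 0.12, adjusted p = 0.0602). The groups of Zmat3 did not overlap, and it passed without wild-type replicate 3 (0.0141), with DESeq2 (0.0411), with limma-voom (0.0498) and with no filter on low counts (0.000275). An antisense transcript, Gm26787, shares 324 exonic bases with Ei24 and had 967 counts against 9629.

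DNA repair genes went in different directions: 2 rose, 1 fell and 1 did not pass. Polk, a polymerase that copies past damaged bases, rose from 19.0, 28.2 and 26.8 CPM to 44.4, 41.8 and 53.2 (0.91 ± 0.15, adjusted p = 0.00125). Rrm2b, the p53-induced subunit of ribonucleotide reductase, rose from 5.60 ± 0.648 to 8.25 ± 1.27 CPM (0.56 ± 0.19, adjusted p = 0.0363), and Xpc, which finds lesions for nucleotide excision repair, fell from 46.0 ± 5.54 to 37.2 ± 2.97 CPM (−0.31 ± 0.11, adjusted p = 0.0458). Neither of these 2 calls was firm. For Rrm2b the adjusted p was above 0.05 on leaving out wild-type replicate 2 (0.134), wild-type 3 (0.0728), Ts1Cje 2 (0.102) or Ts1Cje 3 (0.132), as well as in limma-trend on TPM (0.0921). For Xpc it was above 0.05 without wild-type 2 (0.166), wild-type 3 (0.132), Ts1Cje 1 (0.144), Ts1Cje 2 (0.0720) or Ts1Cje 3 (0.0693), and with limma-voom (0.0502), limma-trend (0.0748) and a minimum mean log2 CPM of 1 (0.0520).

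Ddb2, the other damage sensor of excision repair, had 24.0, 32.3 and 27.2 CPM in wild-type and 26.1, 26.0 and 28.7 in Ts1Cje (−0.05 ± 0.12, adjusted p = 0.777), and the groups overlapped. Acp2 on the opposite strand shares 652 exonic bases with Ddb2, and the antisense transcript Gm49085 shares 734 with Rrm2b, so the reads of both genes are uncertain.

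The genes of metabolism and autophagy held the widest range. Dram1, a lysosomal membrane protein of autophagy, showed the largest rise of the set. It had 5.90, 4.06 and 3.40 CPM in wild-type and 29.2, 17.8 and 24.8 in Ts1Cje, 5.37-fold (2.42 ± 0.24, adjusted p = 6.57e-05). Sesn1 and Sesn2 encode sestrins, which sense stress and leucine and restrain mTORC1, and they moved in opposite directions. Sesn2 rose from 86.3, 58.2 and 57.1 CPM to 137, 123 and 129 (0.95 ± 0.16, adjusted p = 0.00192), and Sesn1 fell from 24.2, 33.9 and 32.8 CPM to 15.8, 17.3 and 13.8 (−0.95 ± 0.15, adjusted p = 0.000655). Neither gene's groups overlapped. In TPM, Sesn2 over Sesn1 was 4.08, 1.97 and 1.99 in wild-type and 9.95, 8.11 and 10.7 in Ts1Cje (2-sided exact permutation test, p = 0.1). This test adds no evidence, since opposite moves without overlap fixed the separation of the ratio in advance. Wild-type replicate 1 was the library of its group nearest to Ts1Cje for both genes. Gdf15, a secreted stress hormone, had 5, 4 and 6 counts in wild-type and 3, 15 and 8 in Ts1Cje, and a difference was not detectable at this depth (without the filter, 0.83 ± 0.74 SE, adjusted p = 0.47).

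Each gene was also set beside its neighbours on the chromosome. For the 30 tested genes, the median log2 fold change of the tested genes starting within 2 Mb ranged from −0.28 to 0.25. The highest of these medians was at Dram1 on chromosome 10, where 12 of 26 neighbours rose and 0 fell. Around Trp53inp1 on chromosome 4, 8 of 26 neighbours rose and 1 fell, with a median of 0.25, and around Eda2r 2 of 12 rose and 5 fell, with a median of −0.28. These 3 genes moved further than their neighbours' medians. A single gene can do so more easily than a median over many, so the comparison is a description only. Gtse1 stood at 0.46 beside 0.23, and Aen at 0.28 beside a neighbour median of opposite sign, −0.24. For Ddb2, at −0.05, the neighbour median of 0.15 was the larger in size.

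**Figure D3:**
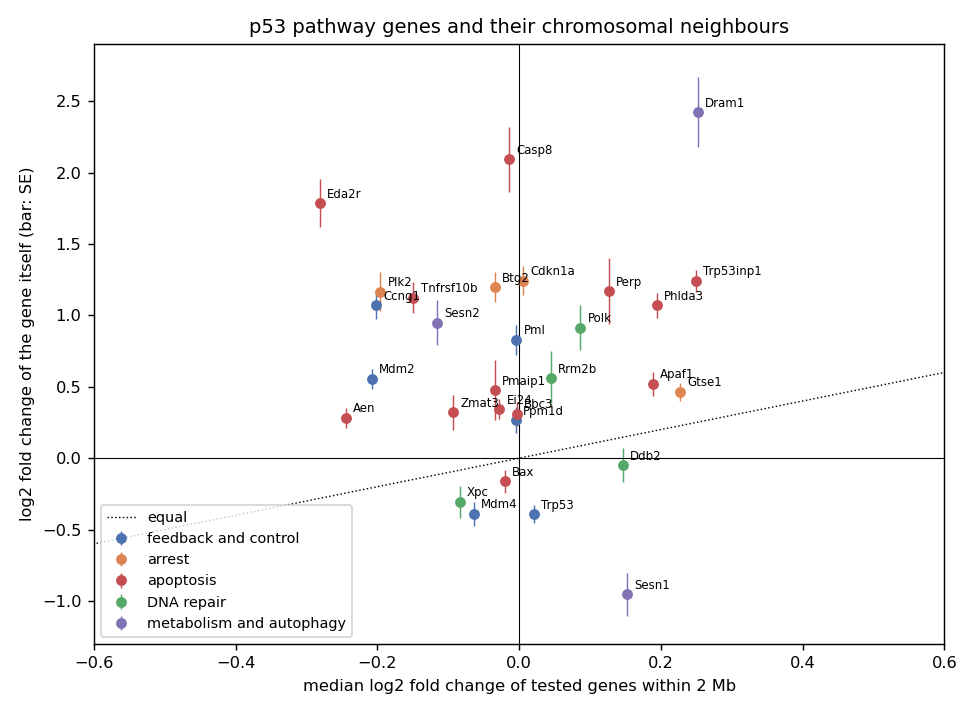
Each point is a tested gene, coloured by function; the x axis is the median log2 fold change of tested genes starting within 2 Mb, the y axis the gene's own log2 fold change with its SE, and the dotted line marks equality. Neighbour medians stay between −0.28 and 0.25, while the genes span −0.95 (Sesn1) to 2.42 (Dram1).

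Genes above p53 were mostly lower. Of 14 tested genes for damage kinases, their adaptors and other kinases of p53, 8 fell and 3 rose, with a median of −0.30. That is 78.6% called, against 43.8% of all tested genes, where 20.5% fell and 23.3% rose. Atm, the kinase that answers double-strand breaks, fell from 141, 141 and 132 CPM to 92.4, 85.1 and 93.9 (−0.61 ± 0.07, adjusted p = 7.41e-05). Atr, its counterpart at stalled replication forks, fell by 0.52 on the log2 scale (SE 0.07), and Trp53bp1, an adaptor at breaks, by 0.54 (SE 0.07). Chek2, the kinase between ATM and p53, stood at 0.17 ± 0.09 (adjusted p = 0.174). Hipk2 (0.43 ± 0.10) and Dyrk1a (0.33 ± 0.06), kinases that can phosphorylate p53, rose, and Dyrk1a is among the triplicated genes.

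Of 16 genes for ubiquitin and acetyl control of p53, 3 rose and 3 fell (37.5% called), with a median of 0.02. Cdkn2a, whose ARF product blocks MDM2 and whose INK4A product blocks CDK4, rose from 1.46, 1.19 and 1.32 CPM to 7.45, 5.90 and 10.9 (2.61 ± 0.28, adjusted p = 6.92e-05). The counts are per gene and do not tell the 2 products apart. Rpl5 (−0.46 ± 0.07) and Rpl11 (−0.22 ± 0.06), ribosomal proteins that can also hold MDM2, fell, as did Crebbp. Rffl (0.87 ± 0.10) and Usp10 (0.40 ± 0.07) were the other genes of this list that rose. In the family of p53, Trp73 rose from 2.27, 0.704 and 0.713 CPM to 12.5, 6.26 and 6.61 (2.77 ± 0.49, adjusted p = 0.00229), and Trp63 had 0 to 5 counts per library and was not tested. Ppp1r13b, a cofactor that steers p53 to apoptosis genes, fell (−1.40 ± 0.23), and Ppp1r13l, its inhibitory relative, rose (0.54 ± 0.12).

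Among 52 further tested targets of p53, there were 24 increases and 7 decreases and 21 did not pass, with a median of 0.27, beside 0.56 for the 30. Ptpn14, a phosphatase that restrains YAP, rose by 1.02 ± 0.07, and Cdc42bpg (1.97 ± 0.12) and Arap2 (1.30 ± 0.10) rose too. Ier5 (−1.48 ± 0.14), Gadd45g (−1.39 ± 0.24), a stress sensor, and Pcna (−0.40 ± 0.07), the clamp of replication, fell. Listed targets thus moved in either direction, and 59.6% of them were called. Among all tested genes 43.8% were called, 23.3% higher and 20.5% lower.

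Cell cycle genes that p53 is known to lower through p21 and the DREAM complex made up a list of 20. Of these, 7 fell, 0 rose and 13 did not pass, and their median was −0.15. That is 35% called, all lower, against 43.8% of all tested genes called and 20.5% lower. Top2a (−0.41 ± 0.05), Bub1 (−0.46 ± 0.06) and Bub1b (−0.48 ± 0.07), genes of chromosome separation, fell. Of 18 genes of G1 control, 55.6% were called: 7 fell and 3 rose. Besides Cdkn2a the genes that rose were Cdkn2b (2.45 ± 0.55) and Ccne1 (0.62 ± 0.16). Cdkn2b was low, with 13, 1 and 14 counts in wild-type and 49, 39 and 65 in Ts1Cje. The falls with the smallest adjusted p were Cdk6 (−1.03 ± 0.12), E2f1 (−0.69 ± 0.10) and Ccnd3 (−0.58 ± 0.09). Among the genes named outside the set, Bub1b, Trp53bp1, Bub1, Bcl2l11, Pcna and E2f1 all fell and lie on chromosome 2, from base 118598211 onward. Bcl2l1, which rose, lies there too. Neighbours were compared for the genes of the set only, so the part of position in these falls was not tested.

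Of 22 genes of the BCL2 family, caspases and apoptosome outside the set, 7 rose and 6 fell, with a median of 0.11. Bcl2, the founding survival gene, fell from 13.1, 12.9 and 12.9 CPM to 8.0, 7.39 and 5.61 (−0.89 ± 0.17), while Bcl2l1, which encodes BCL-XL, rose from 69.1, 57.0 and 63.1 CPM to 82.1, 83.5 and 86.6 (0.41 ± 0.08). Mcl1 stood at 0.15 ± 0.06 (adjusted p = 0.0869). Among genes that promote death, Hrk (1.48 ± 0.21), Bad (1.05 ± 0.12) and Ripk1 (0.83 ± 0.11) rose, and Bcl2l11, which encodes BIM, fell (−0.56 ± 0.08). Survival and death genes thus both moved in either direction, with 59.1% of the list called against 43.8% of all tested genes. Of 21 genes of excision repair, translesion copying and ribonucleotide reductase outside the set, 3 rose and 2 fell, or 23.8% called. Rev1, which gathers translesion polymerases such as the product of Polk, rose (0.30 ± 0.07), and Rrm1, the large reductase subunit, fell (−0.37 ± 0.06).

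**Figure D4:**
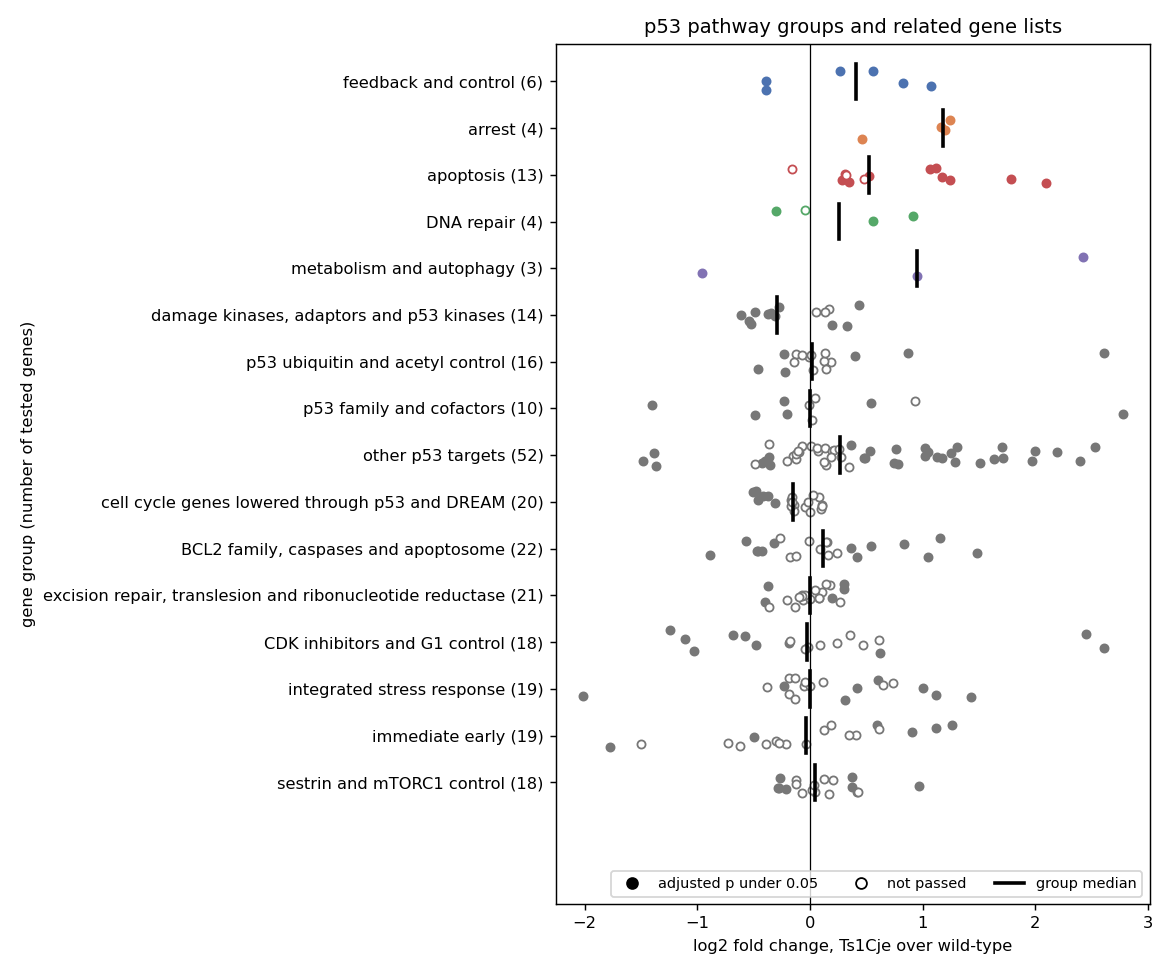
Each point is a tested gene on the log2 fold change axis (Ts1Cje over wild-type), filled where the adjusted p was below 0.05; the first 5 rows are the p53 pathway genes by function, the rows below are related lists, black bars are medians. Medians of the first 5 rows lie between 0.25 and 1.18, and those of the lists between −0.30 and 0.27.

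Some of the genes are known to answer to other signals as well, whose part in their rise was not tested. Of 19 tested genes of the integrated stress response, which can raise Sesn2 and Gdf15 without p53, 6 rose and 2 fell (42.1% called), with log2 fold changes from −2.01 to 1.43 and a median of 0.00. Atf3 (1.12 ± 0.23), Phgdh (1.01 ± 0.13) and Slc3a2 (0.42 ± 0.08) rose, and Vldlr fell (−2.01 ± 0.10). Of 19 immediate early genes, to which Btg2 and Plk2 are close, 4 rose and 2 fell (31.6% called), with log2 fold changes from −1.78 to 1.26 and a median of −0.04. Klf6 (0.90 ± 0.08) and Btg1 (1.26 ± 0.17), the paralogue of Btg2, rose, and Myc fell from 120, 170 and 193 CPM to 49.2, 50.1 and 41.7 (−1.78 ± 0.18). Of 18 genes around sestrins and mTORC1, 4 rose and 4 fell (44.4% called), and Sesn3, the remaining sestrin, rose (0.96 ± 0.12).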

How the data were processed

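The authors deposited 2 gene tables for the 6 libraries, one of read counts and one of TPM. Per the submitters' processing notes, HISAT2 2.1.0, featureCounts 1.6.3, Trimmomatic 0.38, FastQC 0.11.7 and mm10 were used; strand setting and treatment of multiply aligned reads: not given in the sources used here. In R 4.3.3, genes passing filterByExpr of edgeR 4.0.16 (minimum count 10, total 15) were scaled by TMM and compared by the quasi-likelihood test without covariates, and p-values were adjusted by Benjamini-Hochberg across every gene kept. Where no other tool is named, fold changes and adjusted p-values are edgeR's. The SE is approximate: log2 fold change, without its sign, divided by the root of F. The procedure was tested on simulated data. Of 16988 genes there, 100 were given a log2 change of size 1 and 99 a change of size 2. The procedure recovered 59 (59%) and 92 (92.9%) of these, with 13 false calls. In the deposited data 43.8% of all tested genes passed, and recovery with that many changed genes was not tested. Alternatives used DESeq2 1.42.0 and limma 3.58.1, other scaling and filters, a replicate block, and 5 of the 6 libraries at a time. The genes, lists and motifs were chosen with earlier results of these data known. Genes outside the set were named by rule: Dyrk1a, Cdkn2a, Bcl2, Bcl2l1, Mcl1, Trp63, Trp73, Atm and Chek2, and from each list those among the 3 higher and 3 lower genes with the smallest adjusted p whose groups did not overlap. Not every gene that the rule gave is described above. Left out were Xiap, Cited2, Setd7, Seh1l and Rptor, all lower, Sec13 and Prkag1, both higher, and some genes listed below. Replicates of a group were not duplicates, since the chi-square per degree of freedom between their counts was 4.53 to 16.8. Exonic overlaps come from GENCODE vM21.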

Additional observations from a re-analysis of the deposited data

How the results depend on the processing

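With all 6 libraries, 21 to 23 of the 30 genes were higher and 3 or 4 lower under DESeq2 size factors, upper-quartile factors, DESeq2, limma-voom, limma-trend on log2(TPM + 1), and a minimum mean log2 CPM of 1. With no filter on low counts all 32 were tested, 23 higher and 4 lower, Fas and Gdf15 not among them. With 1 library left out, 19 to 23 were higher and 3 or 4 lower, and the median log2 fold change of the set was 0.53 to 0.66. It was 0.66 without wild-type replicate 1 and 0.64 with Ts1Cje replicate 1 left out, and the cause was not tested. Of the 30 genes, Ddb2 alone changed sign under these settings. It was not called, and with 1 library left out it ranged from −0.15 to 0.069, the latter without wild-type replicate 2. The labels do not say whether lots of the same number belong together, so the numbers were not taken as pairs in the main test. Deviations of same-numbered lots correlated at 0.219, 0.0589 and 0.202, and every library correlated best with its own number. With the lot as a replicate block, 24 of the 30 were higher and 4 lower, with Pmaip1 and Zmat3 added, Mcl1 also passed, and 4361 and 3965 of all tested genes were higher and lower, against 4032 and 3547. Named by the rule but given no values, Rad9a, Rad23b, Crebbp, Ercc6, Shmt2, Nr4a1 and Mios did not pass under 1 or more settings.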

Other observations

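Motifs of other pathways were sought on both strands of the same promoter windows. TTTGAA, the core of the cell cycle homology region, stood in 5 of the 24 genes with a window, Casp8, Bax, Aen, Gdf15 and Fas, against 20.2% of all genes with one. TGATGNAA, shared by ATF4 and C/EBP factors, stood in 1, Polk (4.51% of all genes). The core of the interferon-stimulated response element stood in 1, Plk2 (3.99% of all genes). At Bax the TTTGAA match overlapped the p53 decamer. These matches describe the letters only.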
